A study of Mus musculus with 8 samples.

Results

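Accessible regions that lie in protein-coding exons, away from promoters, were followed in pre-B cells after induction of the transcription factor Ikaros (IKZF1). A region entered the set if a peak was present in both replicates of at least 1 time point, if 50% or more of its length was coding sequence (CDS), and if it lay over 2 kb from every annotated transcription start site. This gave 704 regions in 653 genes. They were part of 107416 regions present in both replicates of some time point, and of 174718 merged regions in all. Ikzf1 regions were left out by the rule. There were 6 of them, and each had a peak in all 8 libraries.

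Accessibility was measured by ATAC-seq in B3 cells, a mouse line that resembles pre-B cell progenitors. All cells were transduced with Ikaros-ERt2, a fusion of Ikaros with the ligand-binding part of an estrogen receptor that enters the nucleus on 4-hydroxytamoxifen (4-OHT). Cells were left untreated (0 h) or kept in 500 nM 4-OHT for 30 min, for 1 h or for 2 h, and each time point had 2 replicates. No source used here says whether replicates were separate cultures, so the spread between them may be technical. The labels name no vehicle for the 0 h cells, so 4-OHT itself, its vehicle and Ikaros cannot be told apart as sources of a change. The lists held 85903 to 103897 peaks, and the typical background was 0.26 to 0.405 fragments per base. Start sites of 7 of 9 pre-B marker genes had a peak in all 8 libraries, against 2 of 8 T cell, 0 of 7 myeloid, 0 of 6 erythroid and 2 of 6 fibroblast markers.

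Ikaros is a zinc finger protein that binds short motifs around a GGAA or GGGA core and acts in lymphocytes largely with corepressors. Most of its sites are in promoters and in enhancers within introns or between genes. Coding exons are usually packed in nucleosomes. A coding exon can nevertheless hold a regulatory element, and the same bases then serve both the protein and the factors that bind them. ATAC-seq finds such elements because the Tn5 transposase cuts DNA that nucleosomes leave free.

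The coding exon regions had a median length of 165 bp and a median GC content of 55.5%, against 51.0% over all 107416 regions and 49.6% in introns over 2 kb from a start site. CpG dinucleotides were also more frequent, with a median of 2.35 per 100 bp against 1.35 over all regions. These base composition differences were not tested, and coding sequence is generally GC-rich. The summit lay inside the coding exon in 625 regions (88.8%). The whole region lay inside it in 217, and 487 reached past the exon into flanking sequence. The exon end did not mark the peak end, since both ends lay within 10 bp of the exon ends in only 12 regions. Internal coding exons held 489 regions, last coding exons 167, first coding exons 32 and single coding exons 16. The median exon length was 197 bp, against 121 bp over the 231728 coding exons of the annotation, and 162 regions (23.0%) were in exons over 500 bp. A longer exon can fulfil the CDS requirement more easily, so this excess is partly set by the rule. The median distance to a start site was 7150.5 bp, and 25 regions lay over 50 kb away.

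Signals were weak. The median coding exon region had 11 fragments at its summit, against 14 over all regions. It was 12 both in introns and between genes over 2 kb from a start site. The fragment number was recovered from the deposited fold and p-value of each peak. A peak was present in all 8 libraries in 275 regions (39.1%), against 44.6% of all regions. The share was 38.3% in these introns and 39.6% between genes, so both values were near those of other distal regions. By library, 517 and 477 of the regions had a peak before treatment, 551 and 506 after 30 min, 559 and 510 after 1 h, and 556 and 527 after 2 h. The consensus motif of the insulator protein CTCF was found anywhere in the region in 53 regions (7.53%, against 6.15% of all). In the 200 bp around the summit, on both strands, the RUNX word TGTGGT was found in 25.1% (against 25.6%) and an EBF1 word, TCCC and GGGA with any 2 bases between them, in 3.41% (against 2.66%). The EBF1 word contains 2 of the core words counted next. Ikaros core words (GGAA and GGGA, on either strand) numbered 1.98 ± 1.15 per 100 bp (SD over 704 regions) in the same window. The figure was 2.11 over all regions and 2.00 in introns.

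The sequences around the summits of the regions whose mean rank changed most by 2 h, in percentile points, are shown next. Their core words are compared with the changes below. Each is the plus strand of GRCm38, 75 bases either side of the summit, with core words in capitals. The first 5 fell in rank.
Pigr, chr1:130847232-130847382: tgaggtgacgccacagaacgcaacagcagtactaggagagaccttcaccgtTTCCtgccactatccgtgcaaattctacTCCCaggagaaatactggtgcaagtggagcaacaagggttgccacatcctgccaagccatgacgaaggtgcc
Ank2, chr3:126945018-126945168: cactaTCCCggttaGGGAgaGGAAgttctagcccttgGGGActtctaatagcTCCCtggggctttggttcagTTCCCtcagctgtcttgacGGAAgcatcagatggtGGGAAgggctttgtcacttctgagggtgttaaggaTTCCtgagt
Akap9, chr5:3968551-3968701: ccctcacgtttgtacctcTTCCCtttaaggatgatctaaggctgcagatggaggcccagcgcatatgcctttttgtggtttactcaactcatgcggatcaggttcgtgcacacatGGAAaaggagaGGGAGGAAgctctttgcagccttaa
Amph, chr13:19139255-19139405: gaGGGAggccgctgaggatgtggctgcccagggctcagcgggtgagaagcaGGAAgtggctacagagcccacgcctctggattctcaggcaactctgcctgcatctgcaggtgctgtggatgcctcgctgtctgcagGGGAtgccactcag
Slc26a7, chr4:14565459-14565609: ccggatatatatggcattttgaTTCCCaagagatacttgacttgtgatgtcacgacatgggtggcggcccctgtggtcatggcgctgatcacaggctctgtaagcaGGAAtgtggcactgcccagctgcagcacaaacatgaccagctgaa
The next 3 rose in rank.
Strada, chr11:106170902-106171052: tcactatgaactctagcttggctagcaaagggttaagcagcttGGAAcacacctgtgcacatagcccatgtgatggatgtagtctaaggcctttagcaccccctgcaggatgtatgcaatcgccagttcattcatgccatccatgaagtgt
Manba, chr3:135511833-135511983: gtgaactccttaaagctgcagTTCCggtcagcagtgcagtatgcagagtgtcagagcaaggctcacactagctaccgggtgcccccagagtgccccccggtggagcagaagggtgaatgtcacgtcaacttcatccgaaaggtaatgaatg
Slc47a1, chr11:61349467-61349617: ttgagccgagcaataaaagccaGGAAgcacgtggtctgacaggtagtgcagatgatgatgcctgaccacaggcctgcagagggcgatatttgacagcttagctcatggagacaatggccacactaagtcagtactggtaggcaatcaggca
The Ank2 sequence held 11 core words, Akap9 5, Amph and Slc26a7 3 each and Pigr 2, whereas Strada, Manba and Slc47a1 held 1 each. Lims2, which also rose but by fewer percentile points, is not shown and had 3 core words per 100 bp. All 151 bases were coding in Pigr, Ank2 and Amph, 146 in Slc26a7, 141 in Manba, 122 in Akap9, 99 in Strada and 73 in Slc47a1. A core word is a run of 4 letters and occurs often by base composition alone, so it does not mark a bound site.

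To ask how accessibility changed with time, a region was given the rank that its highest peak had in each list, by fold over local background. The test was limited to the 47875 regions with a peak in all 8 libraries, which included 275 of the 704 coding exon regions. Percentiles below give the share of these 47875 regions with a lower fold in the same library. A region passed the test if the limma adjusted p, computed over all 47875 regions, was under 0.01. Ranks are relative, so a region can only rise where others fall.

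Calls were made at 1 h and 2 h but not at 30 min. At 30 min, limma called 0 coding exon regions lower and 0 higher (background 0.0% of all tested regions in either direction), although the unadjusted p was under 0.05 for 32 lower and 27 higher regions. These were 11.6% and 9.82% of 275, near the background of 9.94% and 9.51%. At 1 h, 11 regions fell and 2 rose, or 4% and 0.727% of 275, where the background was 2.51% and 1.1%. At 2 h, 18 regions fell and 4 rose, or 6.55% and 1.45%, where the background was 4.71% and 2.28%. Thus 253 of 275 regions were not called at 2 h. With a looser adjusted p of 0.05, 5 and 0 regions were lower and higher at 30 min (background 1.49% and 0.702%), 22 and 16 at 1 h (8.18% and 5.74%), and 33 and 27 at 2 h (11.1% and 8.34%). Of the 18 that fell by 2 h, 9 already passed at 1 h, as did 1 of the 4 that rose. The 3 regions called at 1 h and not at 2 h were in Armc3 and Fbn1, which fell, and in Ncam2, a neural adhesion molecule, which rose. Fbn1, for the microfibril protein fibrillin-1, had 27 and 23 fragments untreated, 14 and 11 after 30 min, 9 and 5 after 1 h and 6 and 12 after 2 h. Ncam2 had 14 and 7, 19 and 13, 32 and 34, and 25 and 23. The limma adjusted p at 1 h was 0.00765 for Fbn1 and 0.00534 for Ncam2, and at 2 h 0.0165 and 0.0272.

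The share of calls in each direction depended on the scale. With log2 fragments over the background of the list in place of ranks, 17 coding exon regions were lower and 21 higher at 2 h, against a background of 7.13% and 7.82%. On that scale the median change of all tested regions from 0 h to 2 h was 0.22, and the medians of the lists differed by 0.14. With each list centred on its median, 20 were lower and 15 higher (background 9.32% and 5.35%). Ranking among all peaks of a list gave 12 lower and 4 higher (background 2.72% and 2.5%). The test also needed both replicates. Without 0 h replicate 1, 6 regions were lower and 1 higher at 2 h (background 0.599% and 0.487%). Without 0 h replicate 2, 2 h replicate 1 or 2 h replicate 2, 4 were lower and 0 higher, where the background was 0.439%, 0.62% and 0.38% lower and 0.246%, 0.0961% and 0.0355% higher. In each of these 4 fits Pigr, Akap9 and Slc26a7 stayed below the threshold of 0.01.

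The median coding exon region gained rank. From 0 h to 2 h the median change was 5.12 percentile points over the 275 regions, with 166 positive and 109 negative changes, and 1.35 points over all 47875. As normal scores, the scale of the test, these medians were 0.18 and 0.06. The median of the coding exon regions was 0.11 to 0.35 in the alternative fits, each on its own scale. Distal introns had a median of 0.15 (n = 13817), with 5.82% lower and 3.12% higher. Distal regions between genes also had a median of 0.15 (n = 13207), with 4.94% lower and 2.82% higher. Coding exon regions within 2 kb of a start site had a median of 0.00 (n = 493), with 2.84% lower and 2.03% higher. The median and the share of lower calls thus lay nearer to both distal classes. The share of higher calls lay nearer to promoter-near coding exons. Differences between the classes were not tested.

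**Figure D1:**
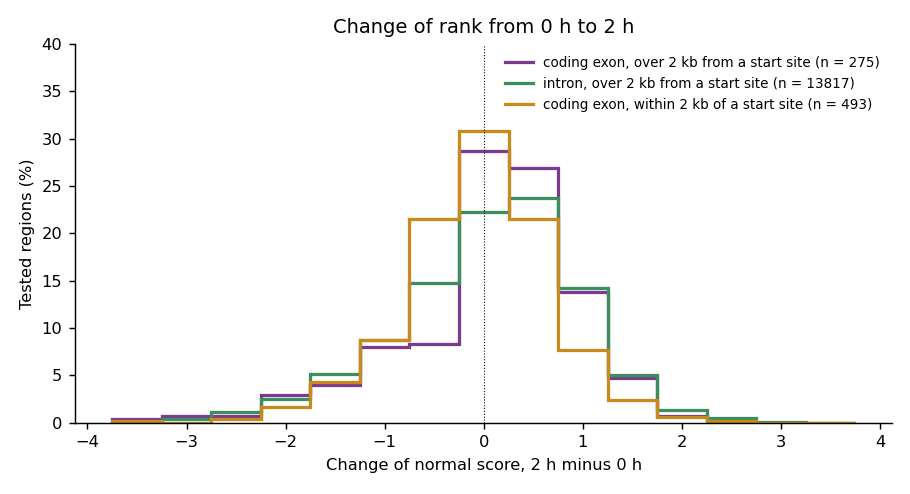
Percent of tested regions (y axis) by change of normal score from 0 h to 2 h (x axis, bins of 0.5, outermost bins include all beyond) for 275 coding exon regions over 2 kb from a start site, 13817 distal intron regions and 493 coding exon regions within 2 kb. The median change was 0.18, 0.15 and 0.00, and each class has a tail to the left.

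The 18 regions that fell started high, which is partly set by their choice through a fall from 0 h. The median of their mean percentiles was 84.5 before treatment, against 38.0 for the 253 regions without a call, and it was 32.0 after 30 min, 18.5 after 1 h and 7.44 after 2 h. Each of the 18 was already below its 0 h mean at 30 min, when none had passed the test. Of the 253 without a call, 95 were below it. The 0 h values in this comparison are those by which the 18 were chosen, so it is no separate support for an early fall. The 4 that rose went from a median of 30.2 to 63.8, 72.9 and 84.7. A region had to have a peak in all 8 libraries to be tested, so those whose peak vanished are described separately below.

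**Figure D2:**
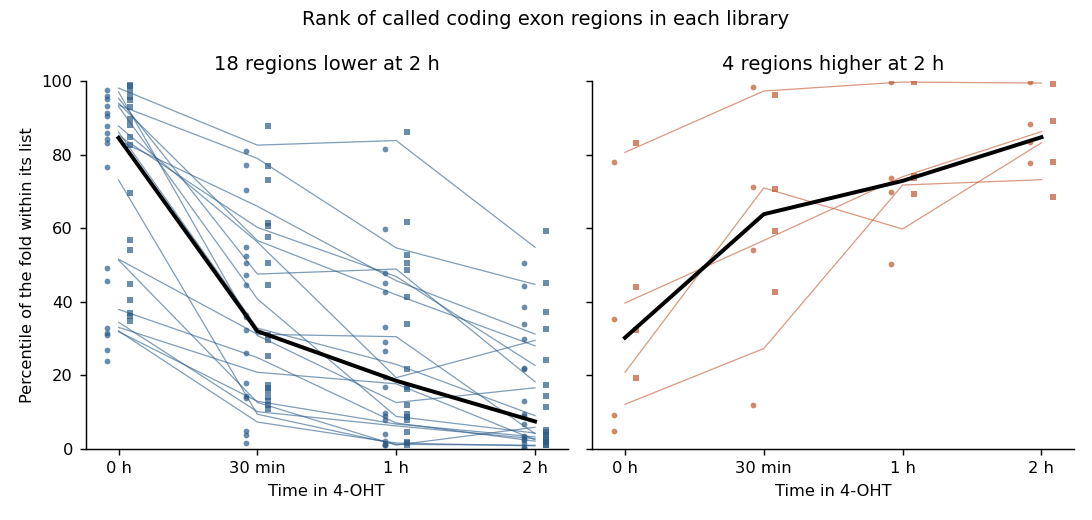
Percentile of the fold within its list (y axis) by time in 4-OHT (x axis) for the 18 coding exon regions that were lower and the 4 that were higher at 2 h. Circles and squares are replicates 1 and 2, thin lines join the means of single regions and the black line is the median of the means, which falls from 84.5 to 7.44 on the left and rises from 30.2 to 84.7 on the right.

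Pigr had the largest fall. The gene encodes the receptor that carries polymeric immunoglobulins across epithelia. The region covered much of coding exon 5 of 10 (chr1:130847092-130847479), 18082 bp from the nearest start site. It had 49 and 38 summit fragments untreated, 18 and 12 after 30 min, 8 and 7 after 1 h and 7 and 5 after 2 h. Both untreated libraries were thus far above all 6 treated ones, and most of the loss was already seen at 30 min. The percentile went from 93.1 ± 0.184 to 4.28 ± 3.59 (SD, n = 2), a score change of -3.28 ± 0.30 (SE) with a limma adjusted p of 0.000958.

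The Ank2 region had the most core words of the called regions. Ank2 encodes ankyrin-B, which ties membrane proteins to the spectrin cytoskeleton. The region lay wholly inside coding exon 38 of 46, a giant exon of 6198 bp (chr3:126944902-126945318). Its summit held 87 and 81 fragments before treatment, then 20 and 14 (30 min), 10 and 11 (1 h) and 9 and 14 (2 h). The drop was nearly complete at 1 h, and the groups at 0 h and at any later time did not overlap. The percentile fell from 97.1 ± 2.67 to 16.6 ± 10.7 (limma adjusted p = 0.00117), but without 2 h replicate 1 the adjusted p was 0.0100.

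Akap9 encodes a scaffold that anchors protein kinase A at the centrosome and Golgi. Its region spanned the start of coding exon 8 of 48 (chr5:3968428-3968743, 51.9% CDS). It had 79 and 61 fragments untreated, 23 and 23 after 30 min, 23 and 22 after 1 h and 14 and 12 after 2 h, so most of the loss came by 30 min and a smaller step followed after 1 h (adjusted p = 0.000958). The region of Slc26a7, an anion exchanger, in coding exon 4 of 18 (chr4:14565424-14565661) was weaker, with 24 and 17 fragments before treatment, then 7 and 8 (30 min), 5 and 5 (1 h) and 4 and 5 (2 h). It ended at the bottom of the ranking, with percentiles of 0.2 and 1.7 at 2 h (adjusted p = 0.00106). Amph, for amphiphysin, which shapes endocytic membranes at nerve terminals, had a region within coding exon 19 of 21 (chr13:19139177-19139432). Its fragments went from 35 and 32 at 0 h to 16 and 13, 14 and 10, and 10 and 7, and the adjusted p was 0.00127. It lost significance without 0 h replicate 2 (adjusted p = 0.0111) or 2 h replicate 2 (0.0121).

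The other 5 of the 10 largest falls were slower or shallower. Stab1, a scavenger receptor of macrophages and endothelium, fell from 72 and 63 fragments to 23 and 14 at 2 h in coding exon 24 of 69. Pan2, the catalytic subunit of a poly(A) tail deadenylase, still had 26 and 31 fragments at 30 min after 54 and 41 at 0 h, and reached 18 and 11 at 2 h. Cltc, the clathrin heavy chain, went from 44 and 41 to 17 and 17, and Igdcc4, a membrane protein of the immunoglobulin superfamily, from 36 and 31 to 16 and 15. Limma adjusted p-values were 0.00248 for Stab1, 0.00813 for Pan2, 0.00351 for Cltc and 0.00438 for Igdcc4. None of these 4 passed in every fit without 1 library, and 3 of them passed in no fit that left out a 0 h or 2 h library. Rai1, the fifth, is described with its neighbours below.

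Itgal, from the list of adhesion and migration genes, also fell. It encodes the alpha chain of the integrin LFA-1, which lymphocytes use to adhere. The region at coding exon 16 of 30 (chr7:127313914-127314223) was among the strongest coding exon regions at 0 h, with 84 and 67 fragments. It had 38 and 41 after 30 min, 36 and 37 after 1 h and 22 and 21 after 2 h, all below both 0 h libraries. The percentile fell from 98.1 ± 0.615 to 54.8 ± 6.15 (adjusted p = 0.00201), and the call was lost in each of the 4 fits without a 0 h or 2 h library. Among the other members that fell were Ccdc136, Farp1, Pcdhb10, Pdzd2, Pura and Rnf213, with mean percentiles of 32.0 to 51.6 at 0 h and 0.784 to 5.86 at 2 h. Their time courses differed. Farp1, a guanine nucleotide exchange factor, had 42 and 35 fragments untreated, 26 and 19 after 30 min, 15 and 13 after 1 h and 21 and 14 after 2 h, so it was lowest at 1 h. Pdzd2, a protein with PDZ domains, had 18 and 15, 20 and 14, 19 and 12, and 9 and 8 fragments, and both libraries lay below both 0 h libraries only at 2 h. Pcdhb10, a protocadherin of a gene cluster with close copies, had 15 and 13, 10 and 13, 10 and 13, and 6 and 6. None of these 6 named regions passed in a fit without a 0 h or 2 h library.

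**Figure D3:**
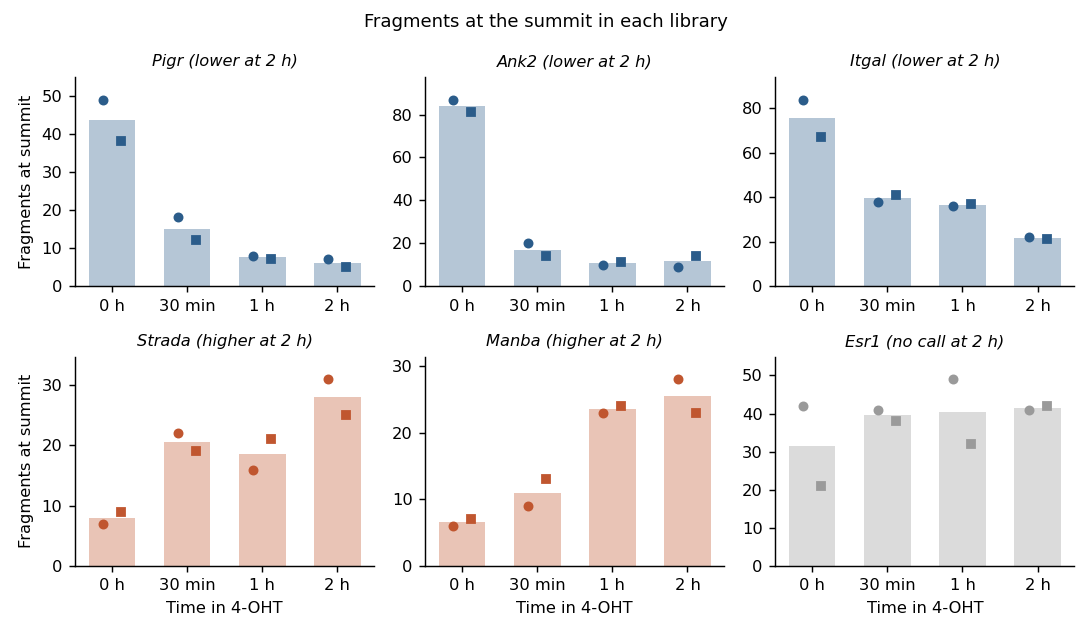
Fragments at the summit (y axis) in each library by time in 4-OHT (x axis) for 6 coding exon regions, with circles and squares for replicates 1 and 2 and bars for their mean. Pigr, Ank2 and Itgal start at 38 to 87 fragments and end at 5 to 22, Strada and Manba start at 6 to 9 and end at 23 to 31, and Esr1 varies between 21 and 49.

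In Pura and Rnf213 the mean local background was higher at 2 h than at 0 h while fragments were fewer. Pura, for a single-strand nucleic acid binding protein, went from 22 and 19 to 12 and 12 while its local background went from 1.57 to 2.07 fragments per base, which lowers the fold. Rnf213, a ubiquitin ligase, went from 28 and 21 to 19 and 19 while its background went from 1.90 to 3.10. On log2 fragments over the background of the whole list, Pura, Rnf213 and Pdzd2 were not called, with limma adjusted p-values of 0.0358, 0.263 and 0.0102. On that scale 14 of the 18 were called lower. All 4 regions that rose were called higher on that scale.

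Only 4 regions rose at 2 h. Strada encodes a pseudokinase that activates the kinase LKB1. Its region at coding exon 7 of 12 (chr11:106170887-106171062) had 7 and 9 fragments untreated, 22 and 19 after 30 min, 16 and 21 after 1 h and 31 and 25 after 2 h. Every treated library was above both untreated ones (adjusted p = 0.00574). Manba, a lysosomal mannosidase, behaved differently in time at coding exon 4 of 17 (chr3:135511812-135511999). It had 6 and 7 fragments before treatment, then 9 and 13 (30 min), 23 and 24 (1 h) and 28 and 23 (2 h) (adjusted p = 0.00849). Slc47a1, an exporter of organic cations, went from 12 and 11 fragments to 17 and 16, 23 and 21, and 28 and 30 at coding exon 15 of 17 (chr11:61349447-61349619, adjusted p = 0.00652). Lims2, an adaptor of integrin-linked kinase at focal adhesions, was already strong, with 40 and 33 fragments at 0 h, and reached 83 and 60, 103 and 98, and 113 and 85 at coding exon 2 of 10. It alone among the 4 passed at 1 h (adjusted p = 0.0032 at 1 h and 0.00316 at 2 h). Each of the 4 calls was lost without any 1 of the 0 h or 2 h libraries, where the adjusted p ranged from 0.0115 to 0.0584.

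Regions with more Ikaros core words tended to fall. The 18 that fell had 2.83 ± 1.21 core words per 100 bp (SD over regions), the 4 that rose 1.25 ± 1.19, and the 253 without a call 1.92 ± 1.08. Of the 44 tested regions with over 3 words per 100 bp, 8 (18.2%) fell and none rose, and their median score change was -0.47. Of the 76 with at most 1 word, 1 (1.32%) fell and 3 (3.95%) rose, and their median change was 0.49. Between these, 6 of 107 with over 1 to 2 words (5.61%) fell and 0 rose, beside 3.02% and 2.46% of all tested regions. Of 48 with over 2 to 3 words, 3 (6.25%) fell and 1 (2.08%) rose, beside 6.19% and 1.26%. Over all tested regions, 11.4% of those with over 3 words fell and 0.455% rose, and 0.855% of those with at most 1 fell and 4.45% rose. In distal introns 16.6% of regions with over 3 words fell. Regions rich in words also started higher. The median percentile at 0 h was 49.5 for coding exon regions with over 3 words and 37.9 for those with at most 1. Over all tested regions it was 60.1 and 39.8. The word window was centred on the summit of the library where the region ranked highest. How far these 2 points bear on the changes was not tested. Spearman's rho between core words and score change was -0.412 across the 275 regions, which share their 8 libraries and are not independent replicates. It was -0.375 across all 47875 and -0.378 in distal introns, which is close to the value in coding exons. Pigr, Stab1, Cltc and Rnf213, with 1.5 words each, and Pura, with 1, were among those that fell despite few words. Lims2 rose with 3.

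**Figure D4:**
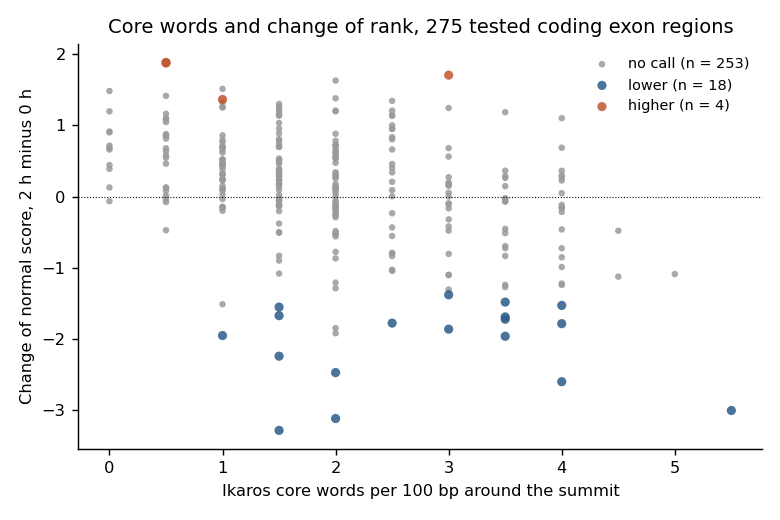
Change of normal score from 0 h to 2 h (y axis) against Ikaros core words per 100 bp in the 200 bp around the summit (x axis) for the 275 tested coding exon regions, with 1 point a region. The 18 lower regions lie at 1 to 5.5 words and the 4 higher at 0.5 to 3, and rho over all points is -0.412.

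Falling regions lay both inside exons and across exon ends. Of the 57 tested regions wholly inside their coding exon, 8 (14.0%) fell and 0 rose, whereas 10 of the 218 that reached past it (4.59%) fell and 4 rose. In exons over 500 bp, 6 of 50 regions (12%) fell, and in shorter exons 12 of 225 (5.33%). Of 58 with a RUNX word 7 (12.1%) fell and 1 (1.72%) rose, beside 6.54% and 3.56% of all tested regions with this word. Of 33 with a CTCF word 1 (3.03%) fell and 0 rose, beside 0.633% and 1.56%. These are counts of few regions, and the differences between the subsets were not tested. The longest exons with falling regions were those of Ank2 (6198 bp), Rai1 (5511 bp), Pdzd2 (3934 bp) and Pcdhb10 (2391 bp).

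Neighbouring regions in 1 exon did not always get the same call. Rai1, a chromatin-associated regulator of transcription, had 3 regions in its first coding exon. One of them had 88 and 70 fragments untreated, 50 and 41 after 30 min, 21 and 19 after 1 h and 23 and 23 after 2 h, and fell (adjusted p = 0.00316). The call was lost in each of the 4 fits without a 0 h or 2 h library (adjusted p = 0.0140 to 0.0274). Another at the start of the same exon (chr11:60184989-60185324) had 33 and 33, 35 and 28, 33 and 24, and 22 and 23 fragments, with mean percentiles of 34.9 and 33.5 at 0 h and 2 h and an adjusted p of 0.955. Its change depended on the scale, and was -0.42 ranked by p-value (adjusted p = 0.312), -0.59 on log2 fragments over background (0.0971) and -0.74 with these centred (0.0358). The one between them had 19 and 14 fragments at 0 h and no peak in any treated library. The falling region had 3.5 core words per 100 bp, the lost one 4 and the other 1. By rank, Rnf213 gave a similar picture in a coding exon of 1150 bp. Its falling region was flanked by one with a peak in both 0 h libraries alone and by one with 54 and 37 fragments before treatment, then 66 and 53 (30 min), 57 and 54 (1 h) and 70 and 64 (2 h) (adjusted p = 0.907). The falling Rnf213 region and this neighbour had the same density of core words, 1.5 per 100 bp. On log2 fragments over background the falling Rnf213 region changed by -0.39 and was not called (limma adjusted p = 0.263). Its local background rose from 1.90 to 3.10 fragments per base. The differences between neighbours were not tested, and both genes were singled out after their values were seen.

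Presence of a peak was used for regions that could not be ranked in all libraries. At 30 min, 58 coding exon regions were lost, with a peak in both 0 h and neither 30 min library, and 54 were gained in the reverse sense. These were 13.2% of 441 and 11.6% of 466, beside 10.9% and 10.3% of all regions. At 1 h, 73 were lost and 88 gained (16.6% and 18.3%, beside 14.6% and 17.0%). At 2 h, 75 were lost and 101 gained (17.0% and 20.8%, beside 16.6% and 20.5%). The shares were thus near the background at 2 h. Distal introns had 19.9% lost and 25.1% gained at 2 h, and coding exon regions within 2 kb of a start site 12.3% and 21.4%. For the earlier losses, the share in distal introns was 13.3% (30 min) and 17.7% (1 h). Between genes it was 12.9% and 17.0%, so early losses in the coding exon set were near those of other distal regions. Coding exon regions within 2 kb of a start site lost 7.80% and 11.1%. The earlier gains made up 12.5% and 20.8% in distal introns, 11.1% and 18.9% between genes, and 13.8% and 18.6% within 2 kb. With 4 libraries there are only 3 ways to split them into pairs, so no p-value was computed.

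**Figure D5:**
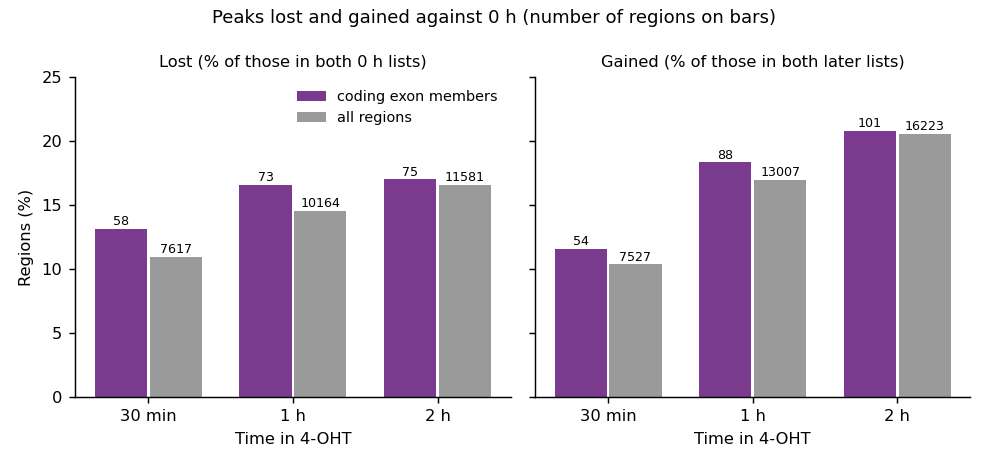
Percent of regions (y axis) lost, of those in both 0 h libraries, and gained, of those in both later libraries, by time in 4-OHT (x axis), with the number of regions on each bar. Coding exon regions had 13.2% lost at 30 min and 17.0% at 2 h, and the bars for all regions stand at 10.9% and 16.6%.

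Lost and gained peaks were mostly small. The median lost region had 7 to 7.5 fragments at 0 h, and the median gained region 8 to 8.5 at the later time. Over 20 fragments were found in 2, 4 and 4 lost regions and in 0, 3 and 2 gained regions at 30 min, 1 h and 2 h. Counting error is large at such numbers. The strongest lost regions, singled out after their values were seen, were those of Tmem26 and Slc22a8. Tmem26, a membrane protein, had 69 and 53 fragments at coding exon 6 of 6 (chr10:68778366-68778833) before treatment, 12 in 30 min replicate 1, 8 in 1 h replicate 2 and no peak in the other 4 libraries. Slc22a8, an organic anion transporter, had 58 and 35 fragments in coding exon 1 of 10 (chr19:8593977-8594280) and 11 in 30 min replicate 1, with no later peak. The strongest gained region was that of Ripor1, a RhoA-binding protein, with 31 and 22 fragments after 1 h and 37 and 33 after 2 h in an exon of 1410 bp. Lost regions had more core words than gained ones, with 2.93, 2.80 and 2.76 per 100 bp against 1.66, 1.45 and 1.51. The 275 regions present throughout had 1.97 ± 1.11. Over all regions, lost ones had 3.12, 3.09 and 3.08 and gained ones 1.62, 1.50 and 1.47. The window was centred on the summit of the library where the region ranked highest, which has to be a library with a peak. The difference between lost and gained regions was not tested.

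A stricter pattern was a peak in both 0 h libraries and in no treated library. It was met by 48 coding exon regions (6.82%, beside 5.39% of all regions). The 5 with the highest mean percentile of the fold at 0 h were in Zan, Zfp53, Ccdc70, Gpr179 and Col2a1. Zan is a sperm membrane protein, Zfp53 a zinc finger gene, Gpr179 a retinal receptor and Col2a1 the collagen of cartilage. Zan had 20 and 12 fragments at 0 h, Gpr179 18 and 12, Zfp53 15 and 13, Col2a1 14 and 8, and Ccdc70 12 and 11. The Ccdc70 region (chr8:21973653-21973850) lay in the only coding exon of its gene and had 7 core words per 100 bp. The reverse pattern, no peak at 0 h and a peak in all 6 treated libraries, was met by 25 regions (3.55%, beside 3.58%). Its 5 regions with the highest mean percentile at 2 h were in Ppwd1, Pcdhb3, Arnt, Otog and Upf1. Ppwd1, a peptidyl-prolyl isomerase, had 14 and 13 fragments after 30 min, 22 and 20 after 1 h and 17 and 23 after 2 h. Arnt, a partner of the hypoxia factor, had 13 and 8, 10 and 11, and 14 and 10. Upf1, the helicase of nonsense-mediated decay, had 11 and 7, 12 and 10, and 15 and 16. A further 12 regions had peaks only in both 1 h and both 2 h libraries (1.70%, beside 1.60% of all regions), 12 only at 2 h (1.70%, beside 1.75%) and 7 only at 30 min (0.994%, beside 0.481%).

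The coding exon regions with the highest mean percentile of the fold over all libraries were in Lhx9, Lims2, Zfp51, Dnah1 and Esr1. Lhx9, a homeobox gene, had 77 and 40 fragments untreated, 80 and 82 after 30 min, 107 and 98 after 1 h and 114 and 108 after 2 h. Its percentile was 99.9 in each of the last 4 libraries, and its score change of 1.14 had an adjusted p of 0.052. The change was 1.73 without 0 h replicate 1 (adjusted p = 0.0149) and 0.55 without 0 h replicate 2 (0.305). Zfp51 had 46 to 82 fragments and Dnah1, an axonemal dynein chain, 37 to 51, and neither passed the test (adjusted p = 0.69 and 0.231). Zfp51 and Zfp53 are zinc finger genes with close relatives, where reads from copies can be assigned wrongly.

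Esr1 needs care, because it encodes the estrogen receptor and the construct carries a part of an estrogen receptor. Fragments from the construct and from the gene cannot be told apart in the lists if the sequences match. Both Esr1 coding exon regions lay in the part of the gene after coding exon 4. That at coding exon 7 of 8 (chr10:4997824-4997953) was 130 bp long with 42 and 21 fragments before treatment, then 41 and 38 (30 min), 49 and 32 (1 h) and 41 and 42 (2 h) (adjusted p = 0.42). That at coding exon 5 of 8 (chr10:4939230-4939310) had 10 to 15 fragments in the 5 libraries with a peak. The gene as a whole held 26 merged regions, 12 of them in all 8 libraries, and a peak at a start site in all 8.

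Gene lists gave few coding exon regions. Of 39 B-lineage and pre-B cell receptor genes, Spi1 and Spib had 1 each, neither with a peak in all 8 libraries. Spi1, for the ETS factor PU.1, had 8 fragments in 0 h replicate 1, no peak in 0 h replicate 2, and 15 and 14 at 2 h, and Spib had 13 in 0 h replicate 1 and 15 in 2 h replicate 1. None of 44 cell cycle and replication genes had a region. Of 44 adhesion and migration genes, Itgal fell and Itgb7, an integrin beta chain, did not pass (adjusted p = 0.436). Of 44 chromatin regulators, only Kmt2a, a histone H3K4 methyltransferase, had a region (adjusted p = 0.863). Of 18 Notch pathway genes, the receptors Notch2 and Notch3 had a region each. Notch2 had 8 and 6 fragments untreated and 18 and 16 after 2 h. Notch3 had 11 and 7 untreated and 20 and 23 after 2 h. Their score changes of 1.20 and 1.16 missed the threshold (adjusted p = 0.0803 and 0.0696). Of 28 collagen genes, 3 had a region, and those of Col2a1 and Col12a1 had a peak in both 0 h and no other library. Prr36 was the only gene with 4 regions, all in an exon of 2196 bp. Both tested ones had no call (adjusted p = 0.881 and 0.178).

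Members at the limits of the rule show where it fell. Cul9 and Myo3b had 50% of their length in CDS, and regions at Noc2l and Hbs1l, with 49.7% each, were left out. By distance, Pcdhac1 at 2004 bp and Rapsn at 2015 bp were inside, and Unc80 at 1984 bp and March7 at 1967 bp outside.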

How the data were processed

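ATAC-seq libraries were made by the authors from B3 cells with Ikaros-ERt2, 2 per time point. Per the labels and methods, reads were aligned with BWA (0.7.17), ends were shifted for Tn5, fragments of at most 120 bp were kept and MACS2 (2.1.2) called peaks on each library alone. The methods text names a human build, but all peaks lie inside the GRCm38 chromosomes, which was used. The deposited lists give for each peak the fold over local background (a ratio), the -log10 p-value, the -log10 q-value (lowest 1.3, a q of 0.05) and the summit. They are not scaled between libraries. The study's count model needs a count table, which was not used here.

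Overlapping peaks were merged. CDS and start sites were taken from GENCODE M21, comprehensive set. Together, a peak's fold and -log10 p-value give its fragment number, and a whole number fitted 99.996% to 99.999% of peaks per list (relative error of -log10 p at most 5e-05). Normal scores of fold ranks, over regions present in all 8 lists, were fitted with limma (3.58.1, R 4.3.3) in 1 model of 4 time points, with Benjamini-Hochberg adjustment and a threshold of 0.01. In simulated data for 2 h against 0 h over 47875 regions, 42.5% of 200 changed regions were called, 87.5% of the 72 with a shift of at least 2, and 0 unchanged ones. The simulated noise was normal and independent, with spreads drawn toward their median. In the data 2256 regions were called lower and 1092 higher at 2 h. The simulation is thus simpler than the data, and its shares do not give the power or error rate of the real test. Replicate scores correlated at 0.852 to 0.869 across regions. Motifs were searched in the RefSeq copy of GRCm38.p6, on both strands. Fragment numbers carry counting error. Some items are not reported here.

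The members and gene lists were chosen with earlier results of these data known. Members were named by rule: the 10 largest falls and rises among those called at 2 h, and the 5 highest mean percentiles. Also named by rule were up to 3 per gene list, genes with 4 or more regions, Esr1 and the 2 nearest to each limit. The 5 of each presence pattern with the highest mean percentile at 0 h or 2 h were named too. Others named were chosen after their values were seen. Alternatives changed the ranking column, reference, scale, threshold, peak filter, variance prior, block, replicates, overlap, list length and definition of members. The basic transcript set was added after seeing the data.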

Additional observations from a re-analysis of the deposited data

How the results depend on the processing

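Counts of called coding exon regions moved with many settings, and the cause was not tested. Some settings also changed the number tested, which was 275 in the report. It was 704 with absent peaks tied at the lowest rank and 198 with peaks of -log10 q of at least 5. It was 85 with at least 90% in CDS, 186 over 5 kb from a start site and 378 with the basic transcript set. Lower calls at 2 h were 6.55% in the report and 9.80%, 5.05%, 10.6%, 6.99% and 6.61% in these, in that order. The matching shares of all regions are given above for some settings only. Without that share, a count here cannot be read as particular to coding exon regions. Lower calls at 30 min (0 in the report) were 4 on fragments over background, 6 with these centred, 19 with absent peaks tied at the lowest rank, 2 with peaks of -log10 q of at least 5, 2 with a mean trend and robust prior and 5 at an adjusted p of 0.05, and higher calls were 1 centred and 3 with absent peaks tied. At 1 h (11 lower, 2 higher), lower calls were 6 ranked among all peaks, 17 centred, 52 with absent peaks tied, 7 with the -log10 q filter, 22 at 0.05 and 4 with at least 90% in CDS. Higher calls were 12 on fragments, 9 centred, 14 with absent peaks tied, 16 at 0.05, 0 with 90% in CDS and 1 over 5 kb from a start site. At 2 h (18 lower, 4 higher), lower calls were 69 with absent peaks tied, 10 with the -log10 q filter, 33 at 0.05 and 9 with 90% in CDS. Higher calls were 1 ranked by p-value, 21 on fragments, 15 centred, 23 with absent peaks tied, 8 with the -log10 q filter, 13 with trend and robust prior, 27 at 0.05, 0 with 90% in CDS and 10 with the basic transcript set, an alternative added after seeing the data. With 1 library left out, no region was called at 30 min, 0 to 8 were lower and 0 to 3 higher at 1 h, and 4 to 15 were lower and 0 to 3 higher at 2 h.

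With the replicate block, lower calls at 1 h were 7, and at 2 h 14 lower and 4 higher were called. Same-numbered libraries shared little (correlations of 0.0172 to 0.0403 over 6 pairs), so the numbers were not taken to pair samples.

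Lost regions were 28 at 30 min and 45 at 1 h with the -log10 q filter. With 90% in CDS, 29 were lost and 27 gained at 30 min, 35 lost and 48 gained at 1 h, and 33 lost and 47 gained at 2 h. Over 5 kb from a start site, they were 38 and 32, 46 and 53, and 47 and 61, and the basic transcript set gave 88 gained at 30 min. These definitions change the number of members itself. With 1 library left out, lost regions numbered 61 to 94 at 30 min, 77 to 105 at 1 h and 79 to 115 at 2 h, and gained ones 74 to 102, 94 to 137 and 112 to 156.

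No region called at 2 h changed direction under any setting run. Among named regions without a call, the Rnf213 neighbour was 0.42 ranked by p-value, 0.0553 among all peaks, 0.54 on fragments, 0.40 centred and -0.14 to 0.0318 with 1 library left out. The uncalled Rai1 region was 0.12 among all peaks, 0.00268 with the -log10 q filter and -0.35 to 0.29 with 1 library left out. The stronger Prr36 region was -0.0312 ranked by p-value, -0.15 on fragments, -0.30 centred and -0.21 to 0.38 with 1 library left out. Zfp51 was -0.00604 centred, and with 1 library left out Kmt2a was -0.42 to 0.70 and Esr1 -0.000429 to 0.95. Lhx9 passed with the trend and robust prior (adjusted p = 0.00959). A median of 11 fragments limits what a single region can show.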
